A study of Cervus nippon with 12 samples.

Results

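The names bta-miR-1246 and bta-miR-1248 were followed through 12 small RNA libraries of sika deer (Cervus nippon) antler cells. They are 2 of the 545 small RNA names listed in every library, 475 of them cattle (bta-) names and 70 of them numbered names outside the cattle set. Both were chosen by their levels in these same 12 libraries, with earlier results of these data known, so their levels and fold changes are given as a description and without a test. Cattle names thus stand for deer reads. The study grew antler cells to follow miRNAs during chondrogenic differentiation, the step by which mesenchymal cells become cartilage cells. All cells were labelled wild type and came from antler tips of male sika deer that were 3 years old. The paper collected antler tissue at 2 times of growth and does not say which time each library came from. CP_0, CP_7 and CP_14 were reserve mesenchyme cells (RMCs, the stem cells of the growing antler tip) kept in centrifuge tubes in chondrogenic medium for 0, 7 and 14 days, and CC were antler chondrocytes in culture, with 3 libraries in each of the 4 groups. Days 0, 7 and 14 below stand for these 3 RMC groups. Before induction the RMCs grew in a serum-containing maintenance medium. What the chondrogenic medium contained is not given in the sources used here. Day of induction, the change of medium and the time in tubes moved together, and their parts cannot be told apart. The paper took the RMCs from reserve mesenchyme and the chondrocytes from cartilage. In comparisons with CC, source tissue, cell type, culture and depth thus cannot be told apart either. The labels do not say which libraries came from which deer or culture, so the errors and p-values below measure only the spread between these libraries.

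A typical miRNA is cut from a hairpin transcript by the enzymes Drosha and Dicer and guides an Argonaute protein to messenger RNAs that pair with its seed. miR-1246 and miR-1248 belong to a group of names for which that origin is doubted. In human annotation the reads of miR-1246 match a fragment of U2 small nuclear RNA, a component of the spliceosome, and miR-1248 lies inside an H/ACA small nucleolar RNA within an intron of EIF4A2, a translation initiation factor gene. miR-1246 is also well known as an abundant RNA of serum and extracellular vesicles. A count under either name may thus hold pieces of a longer structural RNA, and these tables, which give a name and a value, cannot tell such pieces from a miRNA made by Dicer.

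The deposited value of each name was its reads per 1000000 reads on all listed names (RPM), from which the whole reads were recovered. The libraries held 2973442, 4097304 and 3636580 reads at day 0, 769655, 1032029 and 539455 at day 7, 2791559, 3024668 and 3864900 at day 14, and 10256572, 9714090 and 9970138 in CC. CP_7 was the shallowest group and CC the deepest. Much of this depth was miR-21-5p, a miRNA abundant in many cultured cells, which took 60.3% ± 1.22 (SD, n = 3) of the reads at day 0, 23.2% ± 1.62 at day 7, 48.2% ± 4.95 at day 14 and 75.2% ± 2.04 in CC. Because a single name took such different shares, levels are given on 3 scales: as reads, as RPM, and as RPM divided by a composition factor (the trimmed mean of M values, TMM). The TMM factors ran from 0.847 to 0.928 at day 0, from 1.68 to 2.09 at day 7, from 0.935 to 1.02 at day 14 and from 0.559 to 0.650 in CC. None of the scales divides by length, and in bulk samples fewer cells of a type and less of an RNA per cell cannot be told apart.

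The libraries were checked against miRNAs that mark cell types. The 3 cartilage names (miR-140 and both arms of miR-455) were read in every library and miR-140 led them throughout. Their summed TMM-normalized RPM ran from 10559 to 11399 at day 0, from 5083 to 5764 at day 7, from 9851 to 10281 at day 14 and from 16883 to 18399 in CC. The sum, nearly all of it miR-140, was thus present before induction and highest in the chondrocytes on this scale, while miR-455-3p had its highest mean in CP_7 (71.8 against 53.0 in CC). In RPM the sums of all 12 libraries lay between 9043 and 11415. The lower sum in CP_7 was that of miR-140, which fell by 1.03 against CP_0 on the log2 scale with TMM (the ratio of its shares of all reads was 1.02), while miR-455-3p rose by 1.43 (both called by limma) and miR-455-5p, with 0.25, did not pass. The 4 mesenchyme names, led by miR-143, summed to between 148694 and 191149 TMM-normalized RPM at day 0, 54364 and 66555 at day 7, 227768 and 281092 at day 14, and 69677 and 84119 in CC. In RPM the sums of CP_0 and CP_7 overlapped. The sum was mostly miR-143, which fell by 1.70 with TMM in CP_7 against CP_0, whereas miR-199a-3p rose by 1.11 (both called by limma). The directions of miR-214 and miR-145 there depended on the scale: miR-214 had -0.64 with TMM but a share ratio of 1.32, and miR-145 had 0.69 with TMM but 4590 reads in CP_7 against 5957 in CP_0. The 3 muscle names, led by miR-1, ran from 620 to 795 at day 0, from 2136 to 3927 at day 7, from 1654 to 1796 at day 14 and from 1154 to 1283 in CC. Of these, miR-206 differed within groups, with 1, 1 and 52 reads in CP_0, 263, 7 and 0 in CP_7 and 148, 37 and 31 in CP_14.

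Some libraries stood apart in miRNAs of other cells. The 6 blood names (miR-451, miR-486, miR-144, miR-142-5p, miR-223 and miR-150) summed to 47 and 57 reads in the first and second CP_0 libraries but to 15359 in the third. They summed to 17, 167 and 31 reads in CP_7, to between 13557 and 14516 in CP_14 and to between 13897 and 15054 in CC. The third CP_0 library thus resembled CP_14 and CC in its blood names, which are led by the red-cell miRNAs miR-486 and miR-451. At least 1 of the 6 names had 0 reads in 11 of the 12 libraries, and miR-144, another red-cell miRNA, never exceeded 2 reads. miR-126-3p, an endothelial miRNA, had 143, 333 and 1658 reads in the CP_7 libraries, so replicate 3 stood apart in this name. The other endothelial name, miR-126-5p, had only 2, 0 and 5 reads there, too few to tell whether it did the same. Its mean TMM-normalized RPM was 1.91 in CP_7 against 3.51 in CP_0, with overlap, while that of miR-126-3p was 585 against 60.7. The third CP_14 library differed from the others of its group by a chi-square per degree of freedom of 252 and 213 over all names, against 4.92 between those. The fold changes of the members and the evenness of their reads are also given without single libraries, and the part of other cells in the results was not tested.

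miR-1246 was rare in uninduced RMCs and in chondrocytes and abundant in induced RMCs. Its reads were 13, 16 and 14 at day 0, 335, 443 and 414 at day 7, 1836, 1943 and 1860 at day 14, and 8, 14 and 10 in CC. In reads the 3 libraries of CP_14 lay above those of CP_7, which lay above those of CP_0, whereas CP_0 and CC overlapped. Among the names of a library ordered by reads it stood at places 214 to 219 at day 0, 57 to 71 at day 7, 47 to 55 at day 14 and 240 to 270 in CC.

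In RPM the order changed in its upper part. The values were 4.37, 3.91 and 3.85 RPM at day 0 (4.04 ± 0.29, SD, n = 3), 435, 429 and 767 at day 7 (544.0 ± 193.5), 658, 642 and 481 at day 14 (593.8 ± 97.7), and 0.78, 1.44 and 1.0 in CC (1.07 ± 0.34). CP_7 and CP_14 overlapped on this scale, since the third CP_7 library, the shallowest of all, was the highest of the 12 and the third CP_14 library was the lowest of its group. Without the third CP_7 library the groups did not overlap, with 429 and 435 RPM in CP_7 against 481 to 658 in CP_14. CP_0 lay above CC without overlap. With TMM factors the means were 4.61 ± 0.11 at day 0, 280.6 ± 76.8 at day 7, 595.2 ± 70.0 at day 14 and 1.78 ± 0.55 in CC, and no neighbouring groups overlapped. The order CP_14, CP_7, CP_0, CC therefore held with TMM, while the step between CP_7 and CP_14 was within the spread in RPM when all libraries were kept and that between CP_0 and CC was within the spread in reads.

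miR-1248 was far rarer than miR-1246 in the induced cells and peaked earlier. Its reads were 5, 4 and 0 at day 0, 39, 32 and 21 at day 7, 28, 17 and 17 at day 14, and 6, 2 and 6 in CC. In reads CP_7 and CP_14 overlapped and both lay above CP_0 and CC. The third CP_0 library, which stood apart in blood names, was the 1 library without a read, and 0 of its reads allows a level of up to 0.825 RPM (3 reads, counting error only).

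On the other scales CP_7 separated from CP_14. The RPM values of miR-1248 were 1.68, 0.976 and 0 at day 0 (0.89 ± 0.84, SD, n = 3), 50.7, 31.0 and 38.9 at day 7 (40.2 ± 9.89), 10.0, 5.62 and 4.40 at day 14 (6.68 ± 2.96), and 0.585, 0.206 and 0.602 in CC (0.46 ± 0.22). With TMM factors the means were 0.99 ± 0.92, 20.9 ± 4.10, 6.67 ± 2.75 and 0.77 ± 0.38 in the same order. CP_7 lay above CP_14 and CP_14 above CP_0 and CC without overlap on both scales, while CP_0 and CC overlapped on all 3. By reads miR-1248 stood at places 258 to 390 at day 0, 149 to 159 at day 7, 192 to 224 at day 14 and 280 to 320 in CC. The plot of the members by library shows both patterns on the 3 scales.

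**Figure D1:**
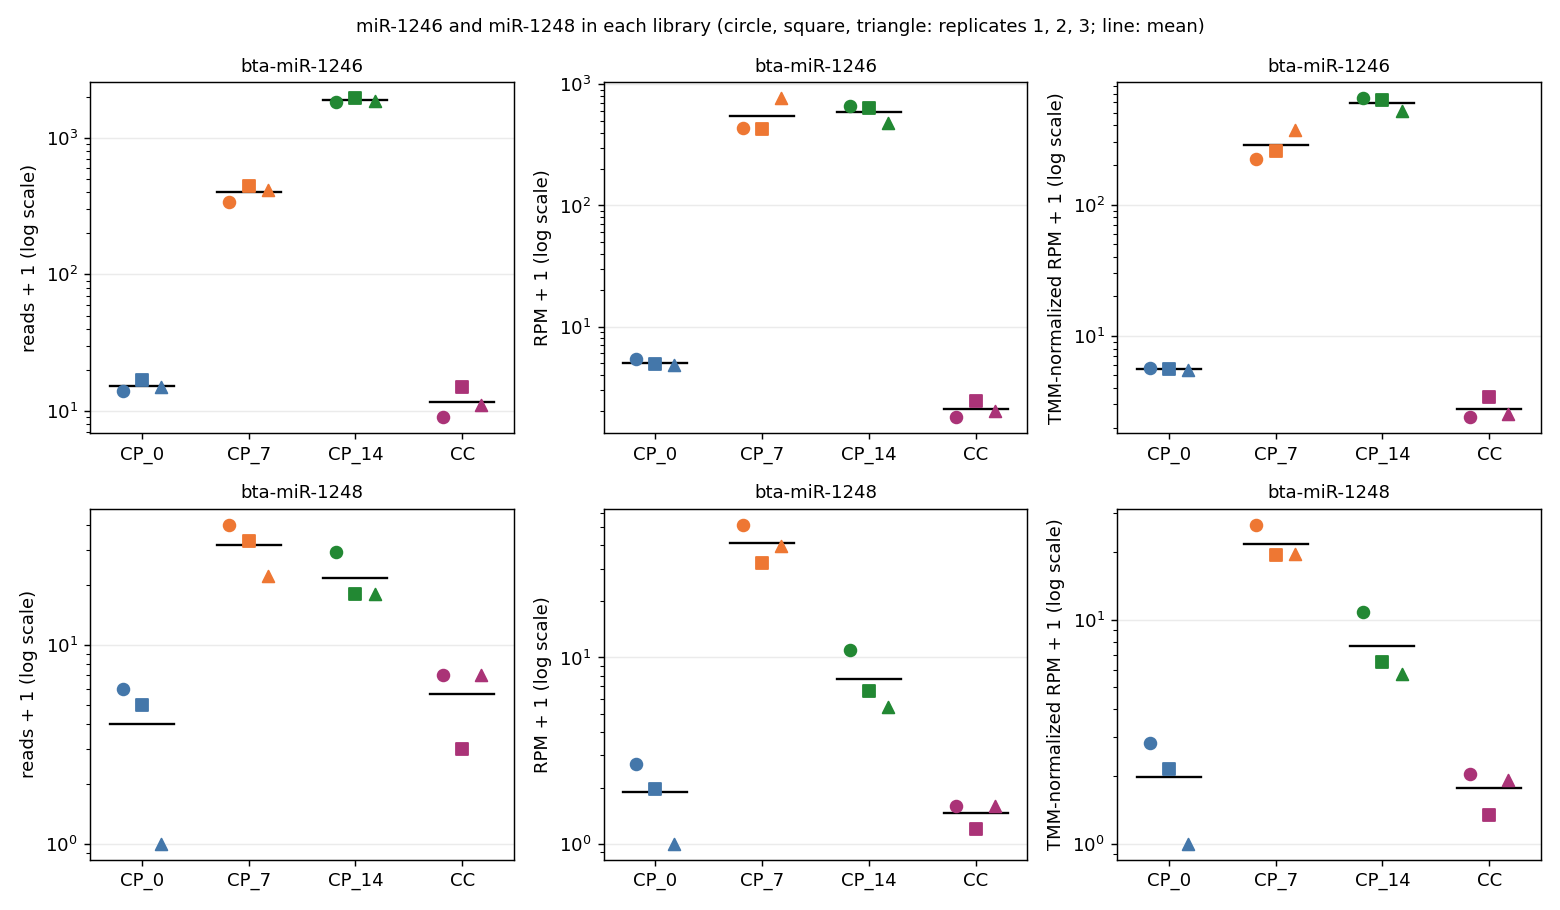
Level of miR-1246 (upper panels) and miR-1248 (lower panels) in each of the 12 libraries, as reads, RPM and TMM-normalized RPM, each plus 1 on a log axis, with circles, squares and triangles for replicates 1, 2 and 3 and a line at the group mean. miR-1246 is highest in CP_14 in reads and with TMM but level with CP_7 in RPM, and miR-1248 is highest in CP_7.

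From day 0 to day 7 both names were far higher. On the log2(TMM-normalized RPM + 1) scale the fold change of CP_7 against CP_0 was 5.72 (SE 0.23) for miR-1246 and 3.80 (SE 0.51) for miR-1248, and these were the 2nd and 4th highest of 246 names tested, whose median was 0.07. As a share of all reads miR-1246 was 127 times higher in CP_7 (1192 against 43 reads, exact 95% interval 93.5 to 176) and miR-1248 46.8 times higher (92 against 9 reads, 23.6 to 105). These intervals cover counting error only. The groups did not overlap for either name on any of the 3 scales. For all names tested, 63.8% passed an adjusted p of 0.05 by limma and 67.9% did not overlap, so a separation by itself was common in this comparison. Without the third CP_0 library the fold changes were 5.70 and 3.32, and without the third CP_7 library they were 5.41 and 3.75.

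From day 7 to day 14 the members parted. miR-1246 was higher in CP_14, with a log2 fold change of 1.03 (SE 0.20, place 41 of 246 from the highest), and miR-1248 was lower, with -1.67 (SE 0.33, place 21 of 246 from the lowest), around a median of -0.01. The size of both depended on the scale. By share of all reads miR-1246 differed by a ratio of 1.14 (5639 against 1192 reads, 1.07 to 1.22), its log2 fold change was 0.17 on RPM and 2.25 on unscaled reads, and the groups overlapped in RPM. The log2 fold change of miR-1248 was -2.46 on RPM and -0.54 on unscaled reads, where the groups overlapped, and the ratio of its shares of all reads was 0.163 (62 against 92 reads, 0.116 to 0.227). The intervals of both ratios cover counting error only. Without the third CP_7 library the fold changes were 1.32 and -1.65. Of all names tested, 52.8% passed the limma threshold and 62.2% did not overlap.

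In the chondrocytes both names were low. Against CP_14 the log2 fold change of CC was -7.61 (SE 0.16) for miR-1246, the lowest of 276 names tested, and -1.92 (SE 0.29) for miR-1248, place 14 from the lowest, around a median of 0.09. There were 32 reads of miR-1246 in CC and 5639 in CP_14, although CC was sequenced more deeply, and 14 against 62 reads of miR-1248. The ratio of the shares of all reads was 0.0018 for miR-1246 (exact 95% interval 0.0013 to 0.0026) and 0.073 for miR-1248 (0.038 to 0.132), with intervals that cover counting error only. Neither name overlapped between CC and CP_14 on any scale, in a comparison where 74.6% of names passed the threshold by limma and 78.6% did not overlap. A pseudocount of 1 RPM pulls such low values towards each other, and with a pseudocount of 5 the fold change of miR-1248 was -0.84.

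CC and CP_0, which came from different antler tissues, were both low in the members. The log2 fold change of miR-1246 in CC against CP_0 was -1.02 (SE 0.19), place 30 from the lowest of 260 names tested, with a median of 0.05, and on unscaled reads it was -0.42. By share of all reads its ratio was 0.266 (exact 95% interval 0.163 to 0.430, counting error only). miR-1248 did not pass the filter on low counts in this comparison, with 14 reads in CC and 9 in CP_0, and its share ratio of 0.556 had an exact 95% interval from 0.224 to 1.46 (counting error only). Without the third CP_0 library the fold change of miR-1246 was -1.02. Here 55.8% of names passed the threshold by limma and 63.1% did not overlap. Each of the 4 comparisons shares libraries with another, so they are not independent.

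**Figure D2:**
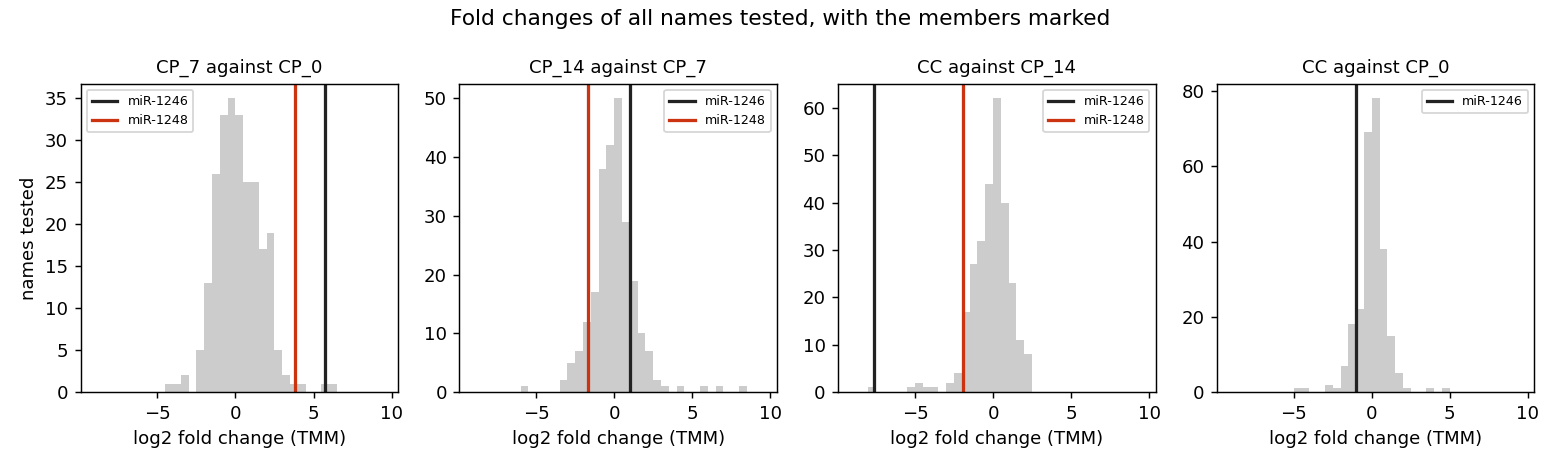
Distribution of the log2 fold changes of all names tested in each comparison (grey bars, number of names per bin) on the log2(TMM-normalized RPM + 1) scale, with the members as vertical lines. miR-1246 lies at the upper edge in CP_7 against CP_0 (5.72) and is the lowest in CC against CP_14 (-7.61), and miR-1248 was not tested in CC against CP_0.

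The composition factor shifted names together, except where the pseudocount weighs on low values. With RPM alone the median log2 fold change of all names tested moved to 1.12 for CP_7 against CP_0, -0.84 for CP_14 against CP_7, -0.54 for CC against CP_14 and -0.33 for CC against CP_0, and on unscaled reads it was -1.04, 1.19, 1.01 and 1.13 in the same order. The split of calls moved with it. In CP_7 against CP_0 there were 88 higher and 69 lower names with TMM, 152 and 20 with RPM, and 22 and 123 on reads. In CP_14 against CP_7 the split was 60 and 70 with TMM, 26 and 138 with RPM, and 148 and 12 on reads. In CC against CP_14 it was 104 and 102, 40 and 163, and 172 and 37, and in CC against CP_0 78 and 67, 30 and 112, and 191 and 13, in the same order of scales. Upper-quartile factors gave 65 higher and 87 lower names in CP_7 against CP_0. Where they were tested, the members kept the sign of their fold change under each scaling run, as the plot of fold changes by scaling shows, and relative to the median of all names under the same scale the CP_14 step was 1.04 with TMM, 1.0 with RPM and 1.06 on reads for miR-1246, and -1.66, -1.63 and -1.73 for miR-1248.

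**Figure D3:**
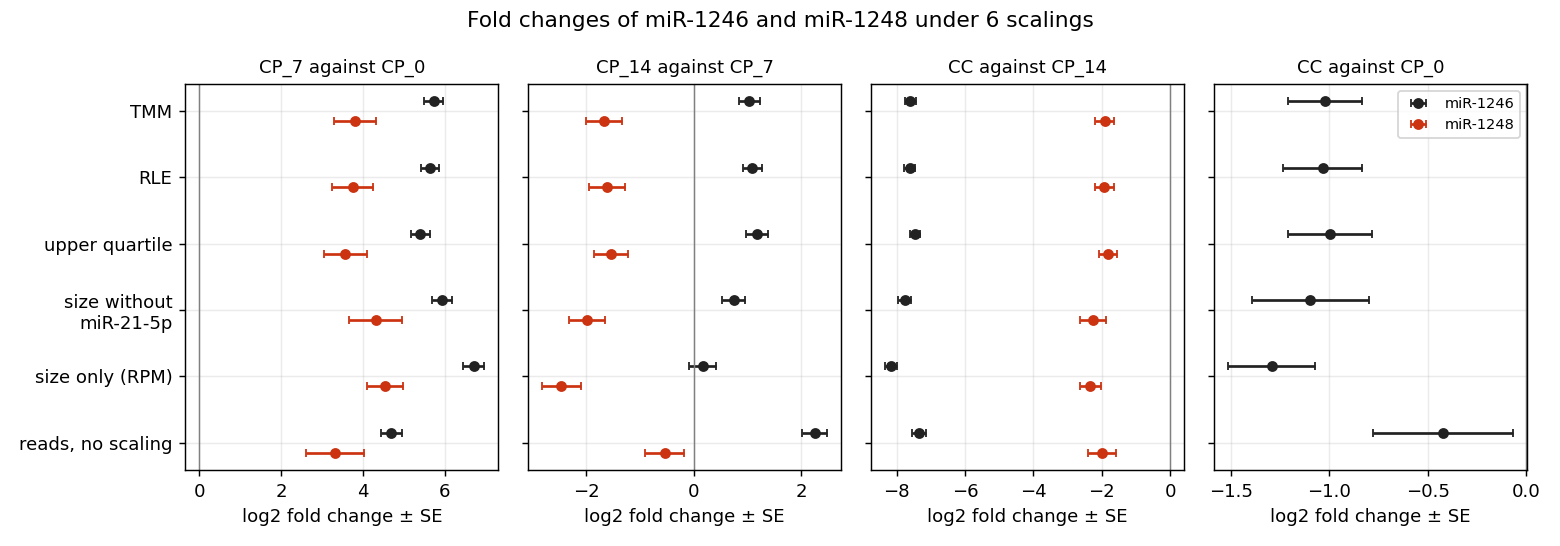
Log2 fold change with its standard error of miR-1246 (black) and miR-1248 (red) in each comparison, with 1 line for each of 6 scalings of the same reads. The sign is the same in every scaling, and the size varies most in CP_14 against CP_7, from 0.17 to 2.25 for miR-1246 and from -2.46 to -0.54 for miR-1248.

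The reads of the members set against each other within a library do not depend on any scaling. The ratio of miR-1246 to miR-1248 reads was 2.6 and 4 in the first and second CP_0 libraries and had only a lower limit of 3.32 in the third, where miR-1248 was not read. It was 8.59, 13.8 and 19.7 in CP_7, 65.6, 114 and 109 in CP_14, and 1.33, 7 and 1.67 in CC. Every CP_14 library had a ratio above every CP_7 library, and the CP_7 libraries lay above all CC libraries and above the 2 CP_0 libraries with a ratio. Over summed reads the ratio was 4.78 at day 0 (exact 95% interval 2.30 to 11.1), 13.0 at day 7 (10.5 to 16.2), 91.0 at day 14 (70.8 to 119) and 2.29 in CC (1.19 to 4.64). These intervals cover counting error only and leave out the spread between libraries. The ratios of 8.59 and 19.7 in CP_7, 65.6 in CP_14 and 7 in CC lay outside the interval of their group. All other ratios, among them 2.6 and 4 in CP_0, lay inside. Single libraries have wider intervals. Those of the 2 CP_7 libraries, 6.15 to 12.3 and 12.7 to 32.2, overlapped the interval of the sum but not each other. Leaving out 1 library at a time gave 3.22 to 7.5 at day 0, 11.0 to 16.2 at day 7, 82.1 to 112 at day 14 and 1.5 to 3 in CC. The value of 7.5 came without the first CP_0 library and that of 1.5 without the second CC library, so the ratios of these groups rest on few reads of single libraries. The ratio compares reads and not levels per length.

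**Figure D4:**
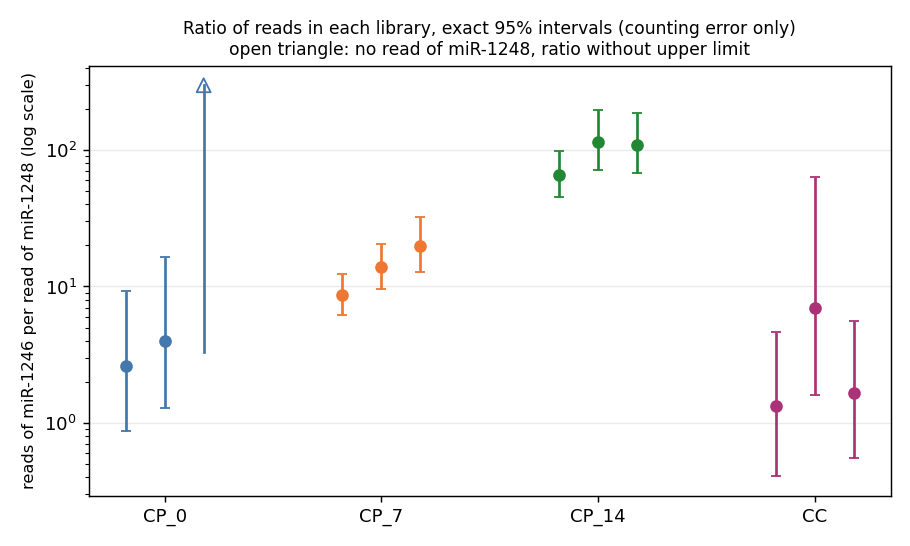
Reads of miR-1246 per read of miR-1248 in each library on a log axis, with exact 95% intervals that cover counting error only. The CP_14 libraries (65.6 to 114) lie above the CP_7 libraries (8.59 to 19.7), and the open triangle is the CP_0 library with 0 reads of miR-1248, whose ratio has no upper limit.

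The libraries of a group differed in depth, with a coefficient of variation (CV, the SD as a percent of the mean) of 15.8% at day 0, 31.6% at day 7, 17.5% at day 14 and 2.72% in CC. A name that follows depth varies less in RPM than in reads. miR-1246 did so in CP_0, where its CV was 10.7% in reads and 7.10% in RPM, but not in CP_7, where it was 14.1% in reads and 35.6% in RPM, nor in CP_14, where it was 2.99% in reads and 16.5% in RPM. In both of these groups the reading rested on the third library. In CP_0 it rested on the second, without which the CVs were 5.24% in reads and 8.98% in RPM. The CP_0 libraries held only 13, 16 and 14 reads of miR-1246, too few for these CVs to tell whether it follows depth. Without the third library the CVs of miR-1246 were 19.6% in reads and 0.98% in RPM in CP_7, and 4.0% and 1.67% in CP_14, so that miR-1246 was then more even in RPM. In CC, where depth hardly varied, the CVs were 28.6% and 31.3%. miR-1248 had a CV of 29.6% in reads and 24.6% in RPM in CP_7 (13.9% and 34.0% without the third library), and of 30.7% and 44.3% in CP_14 (0% and 17.2% without the first library). The 0% came from 2 libraries with 17 reads each, where counting error is large.

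This evenness in reads was set beside that of all names with a mean of at least 10 reads in the group. In CP_7, 55 of 218 names (25.2%) were more even in reads than in RPM, 14 had an RPM CV over 2 times the reads CV, and 15 had a lower reads CV than miR-1246. In CP_14, 121 of 245 names (49.4%) were more even in reads, 54 had an RPM CV over 2 times the reads CV, and 6 had a lower reads CV than miR-1246. In CP_0, 85 of 236 names (36.0%) were more even in reads and 61 had a lower reads CV than miR-1246, and in CC the counts were 142 of 264 (53.8%) and 228. A reads CV below that of miR-1246 was thus uncommon in CP_7 and CP_14 but not in CP_0, and it was the rule in CC. However, miR-1246 averaged 14.3 reads in CP_0 and 10.7 in CC, near the minimum of 10. In CP_7 and CP_14 it averaged 397 and 1880 reads. Counting error raises the CV of rare names, and the names were not matched by abundance, so these places cannot be told apart from abundance. With 3 libraries a group a CV is imprecise, and no cause was tested.

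The 5 names most like miR-1246 over the 12 libraries, by Pearson's r of log2(TMM-normalized RPM + 1) among 283 names, were miR-210 (r = 0.98), miR-2889 (0.97), miR-3604 and miR-199a-3p (0.97 each) and miR-6529a (0.95). miR-3604 and miR-199a-3p had nearly equal reads in every library, so they may be the same reads under 2 names. These correlations describe 12 libraries in 4 groups that share their depth and composition, and carry no test. miR-210, the best known miRNA of the hypoxia response, had 45, 49 and 42 reads at day 0, 105, 157 and 77 at day 7, 307, 299 and 350 at day 14, and 37, 24 and 48 in CC. Its TMM-normalized RPM was 14.6 ± 1.48, 75.8 ± 12.5, 100.3 ± 6.26 and 5.99 ± 1.69 in that order, so its means had the order of those of miR-1246 on this scale. In RPM its order at days 7 and 14 was the reverse, with 136 to 152 in CP_7 and 90.6 to 110 in CP_14, and with TMM the step between them did not pass (log2 fold change 0.33, adjusted p = 0.070 by limma). miR-2889 had 3, 3 and 2 reads in CP_0, 17, 9 and 10 in CP_7, 88, 59 and 56 in CP_14 and 0 in each CC library. miR-199a-3p, a mesenchymal miRNA, had at least 13688 reads in each library, and its highest values with TMM were in CP_7.

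The names most like miR-1248 were others. They were miR-9-3p (r = 0.96), miR-30b-5p (0.95), miR-181b (0.94), miR-26b (0.94) and miR-656 (0.93), and on this scale none of these was among the 5 of miR-1246. miR-9-3p had 4, 7 and 3 reads in CP_0, 24, 16 and 10 in CP_7, 11, 13 and 18 in CP_14, and 12, 4 and 8 in CC. miR-656 had 1, 2 and 0 reads in CP_0, 7 in each CP_7 library, 3, 2 and 5 in CP_14, and 0, 0 and 1 in CC. These rest on few reads. miR-181b was better covered, with 326, 432 and 346 reads at day 0, 1297, 1752 and 774 at day 7, 1156, 1210 and 1813 at day 14, and 1026, 953 and 1032 in CC. On the TMM scale miR-181b was likewise highest in CP_7. The members themselves had r = 0.85 with each other, which put miR-1248 at place 16 among the names like miR-1246 and miR-1246 at place 24 among those like miR-1248. These places depended on the scale, being 38 and 81 with RPM, 6 and 3 with reads, and 35 and 42 with Spearman's correlation. With reads miR-1246 was itself among the 5 names most like miR-1248, and miR-2285cl was in both lists of 5.

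Other miRNA names that arise outside the Drosha and Dicer route, or that overlap structural RNAs, were set beside the members. Of 16 listed names 11 had values, and 9 passed the filter on low counts in each comparison. Those listed as 0 to 5 reads a library, miR-1291 (within a small nucleolar RNA) and miR-1224 (a mirtron, cut from an intron by splicing), were not tested. In CP_7 against CP_0, 4 of 9 passed the limma test, 2 higher and 2 lower, with a list median of 0.11 against 0.07 for all names. In CP_14 against CP_7 it was again 4, with 2 in each direction and medians of 0.13 and -0.01. In CC against CP_14, 6 passed, 2 higher and 4 lower, with medians of 0.07 and 0.09, and in CC against CP_0, 8 passed, 3 higher and 5 lower, with medians of -0.20 and 0.05. The list thus had no common direction. The shares of all names called in these comparisons were 63.8%, 52.8%, 74.6% and 55.8% in the same order, and nothing particular to the list is read from its counts.

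Among these names, miR-2887 and miR-2904 match ribosomal RNA sequence. miR-2887 had 109, 104 and 96 reads in CP_0, 50, 45 and 47 in CP_7, 129, 149 and 141 in CP_14, and 3, 1 and 3 in CC. miR-2904 had 160, 154 and 185 reads in CP_0, 120, 122 and 128 in CP_7, 152, 150 and 143 in CP_14, and 10, 1 and 5 in CC. Both were read at least 45 times in every RMC library and were almost absent from the chondrocytes. In CC against CP_14 miR-2887 fell by 4.76 on the log2 scale (SE 0.20, adjusted p = 8.8e-08 by limma) and miR-2904 fell by 4.53 (SE 0.27, adjusted p = 5.5e-07 by limma). In CC against CP_0 they fell by 4.38 (SE 0.17, adjusted p = 6.8e-06 by limma) and fell by 4.74 (SE 0.27, adjusted p = 2.6e-05 by limma). In both comparisons the 3 libraries of CC lay below those of the other group, and the direction held under every scaling run.

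miR-1246 and the rRNA-like names were thus all low in CC. In CP_7 against CP_0, where the log2 fold change of miR-1246 was 5.72, miR-2887 had 0.04 (SE 0.26, adjusted p = 0.92 by limma). miR-2904 was higher by 0.72 (SE 0.23, adjusted p = 0.029 by limma) with TMM but had -0.42 on unscaled reads. Its call was lost when any library but the second of CP_7 was left out, and with upper-quartile factors (0.38), all 12 libraries in one fit (0.67) and edgeR (0.71). In CP_14 against CP_7 miR-2904 fell by 0.94 (SE 0.24, adjusted p = 0.013 by limma), with 0.26 on unscaled reads, and this call was lost with the replicate block. The reads of miR-2904 had a CV of 3.38% in CP_7 and 3.19% in CP_14, and those of miR-2887 5.32% and 7.21%, against 26.2%, 14.7%, 23.6% and 10.5% in TMM-normalized RPM in the same order. In CP_14 about as many names were more even in reads as in RPM, as given above. Without the third CP_14 library miR-2887 was more even in TMM-normalized RPM (4.43%) than in reads (10.2%), while miR-2904 was not (6.69% and 0.94%).

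**Figure D5:**
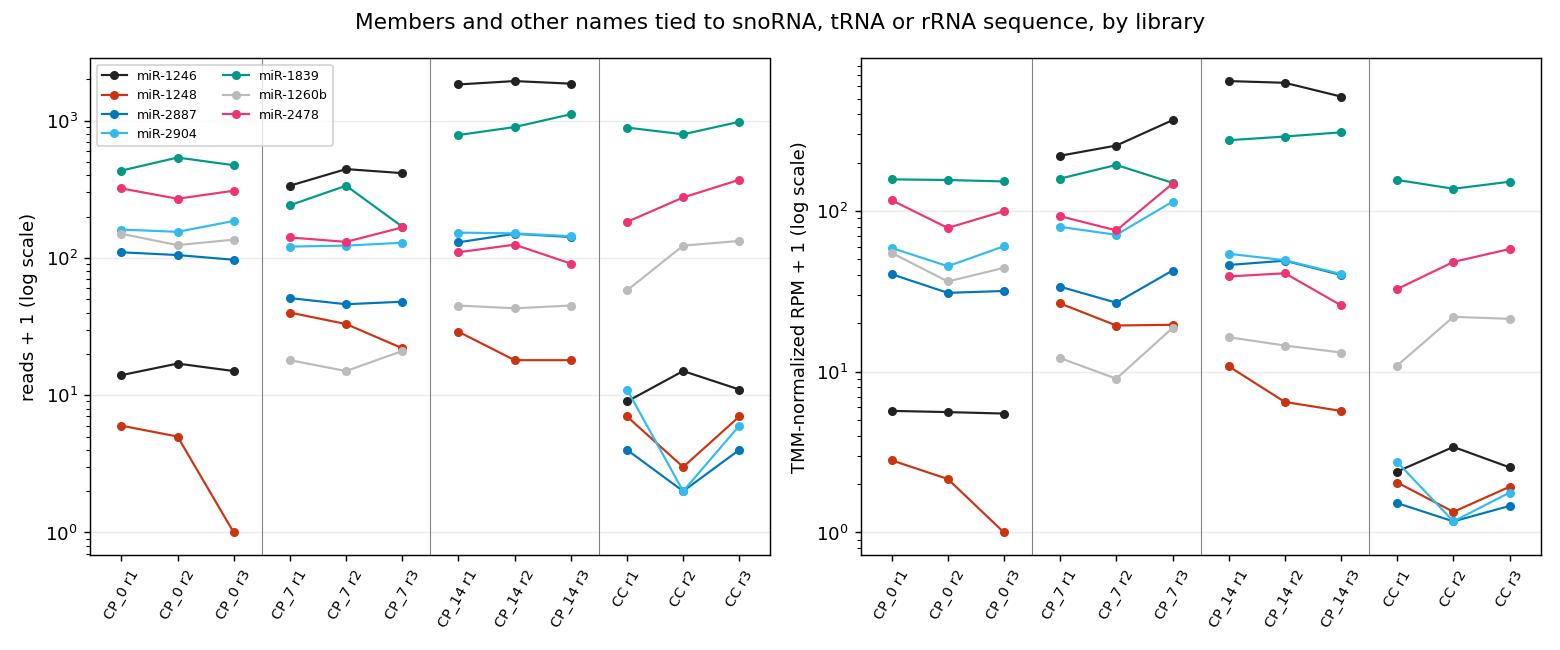
Reads plus 1 (left) and TMM-normalized RPM plus 1 (right), on log axes, of the members and of 5 names tied to small nucleolar, transfer or ribosomal RNA in the 12 libraries, with lines joining only the libraries of a group to guide the eye. miR-1246 spans the widest range, from 8 to 1943 reads, and miR-2887 and miR-2904 share its low values in CC.

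The names that resemble transfer RNA are miR-1260b and miR-2478. The former had 149, 123 and 135 reads at day 0, 17, 14 and 20 at day 7, 44, 42 and 44 at day 14, and 57, 122 and 132 in CC. It fell by 1.78 in CP_7 against CP_0 (SE 0.34, adjusted p = 0.0027 by limma), where both members were higher, but with RPM alone the value was -0.75, the call was lost and the groups overlapped. In CC against CP_0 its log2 fold change was -1.47 (SE 0.30, adjusted p = 0.0062 by limma), and on unscaled reads it was -0.47 and not called. miR-2478 had 320, 269 and 308 reads in CP_0, 140, 130 and 166 in CP_7, 109, 124 and 90 in CP_14, and 182, 275 and 370 in CC. It fell by 1.63 in CP_14 against CP_7 (SE 0.32, adjusted p = 0.0042 by limma), and its log2 fold change in CC against CP_0 was -1.23 (SE 0.24, adjusted p = 0.0055 by limma). On unscaled reads these values were -0.43 and -0.17, and neither was called.

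miR-1839 and miR-664b overlap small nucleolar RNAs, as miR-1248 does. miR-1839 had 432, 538 and 473 reads at day 0, 241, 335 and 168 at day 7, 785, 898 and 1113 at day 14, and 890, 795 and 981 in CC. With TMM it was higher in CP_14 than in CP_7 by 0.73 (SE 0.11, adjusted p = 0.0015 by limma), but with RPM alone the value was -0.13. In CC against CP_14 it fell by 0.98 (SE 0.08, adjusted p = 4.5e-06 by limma), but on unscaled reads the value was -0.06, not called, and the groups overlapped. In CC against CP_0 the fold change was -0.20 (SE 0.06, adjusted p = 0.035 by limma), with 0.88 on unscaled reads. The call was lost with the replicate block and when any library but the first of CC was left out. miR-664b, with 6 to 37 reads in the RMC libraries and 63 to 71 in CC, was higher in CC than in CP_0 by 1.18 (SE 0.27, adjusted p = 0.010 by limma).

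Among the names made without Drosha or Dicer, miR-320a and miR-484 come from short capped precursors. miR-320a was higher in CP_7 than in CP_0 by 0.77 (SE 0.14, adjusted p = 0.0023 by limma) but had -0.38 on unscaled reads, and its call was lost without the first or the second CP_7 library. In CC it was higher than in CP_14 by 0.37 (SE 0.10, adjusted p = 0.0085 by limma), with -0.35 on RPM, and higher than in CP_0 by 0.79 (SE 0.14, adjusted p = 0.0032 by limma). miR-484 fell by 0.58 in CP_7 against CP_0 (SE 0.22, adjusted p = 0.049 by limma) but had 0.45 on RPM. Its call was lost with the replicate block and when any library but the second of CP_7 was left out. In CC its level exceeded that of CP_14 by 1.07 (SE 0.14, adjusted p = 8.6e-05 by limma) and that of CP_0 by 0.86 (SE 0.17, adjusted p = 0.0059 by limma). With RPM alone these values were 0.38 and 0.46, neither was called, and CC and CP_0 overlapped. Without the first CP_7 library only 1 of the 9 names passed in CP_7 against CP_0, and without the first or the third CP_0 library 2 did.

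miR-451, which is cut by AGO2 in place of Dicer and is abundant in red cells, is also in the blood list, where it and miR-486 make up most of the sum. It had 27, 29 and 6933 reads at day 0, 8, 17 and 2 at day 7, 6431, 6039 and 6109 at day 14, and 6619, 6293 and 6119 in CC. It was higher in CP_14 than in CP_7 by 8.43 (SE 0.45, adjusted p = 9.6e-06 by limma) and fell by 0.89 in CC against CP_14 (SE 0.10, adjusted p = 3.9e-05 by limma), with 0.03 on unscaled reads. In TMM-normalized RPM its groups overlapped in the comparisons with CP_0, and the third CP_0 library lay far above the others of its group. miR-1246 had 14 reads in that library against 13 and 16 in the others, and it was high in CP_7, where the blood names were low. Whether other cells contributed to the reads of miR-1246 was not tested.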

How the data were processed

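For each of the 12 libraries the authors deposited RPM values under the header TPM. They are reads per 1000000 reads on all listed names, without division by length. The submitters' processing notes name CASAVA, bcl2fastq 1.8.4 and Bowtie, and for trimming, genome build and miRNA database the sources used here give nothing. Each value was divided by that of 1 read, and all lay within 0.01 of a whole read. The lowest chi-square per degree of freedom between replicates was 4.92, so none was a copy. The main test was limma 3.58.1 (trend on mean intensity) for log2(TMM-normalized RPM + 1), pairwise, two-sided and Benjamini-Hochberg adjusted (threshold 0.05), after edgeR 4.0.16 filterByExpr (minimum count 10, total 15), in R 4.3.3. The alternatives were other scalings, pseudocounts of 0.5 and 5, no filter, 12 libraries in one fit, a replicate block, edgeR, DESeq2 1.42.0 and leaving out each library. The procedure was tested on simulated data. Named were both members, the list of non-canonical names, the 5 names most like each member, and miR-21-5p; others mark cell types. The members and lists were chosen with earlier results of these data known. The effect of each alternative on the non-canonical names, the likeness without the third CP_0 library, the CVs without single libraries and the values relative to the median of all names were added after seeing the data. Reads carry no molecular identifiers, and the authors' qRT-PCR and mRNA data were not analysed here.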

Additional observations from a re-analysis of the deposited data

How the results depend on the processing

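The members kept the direction of their tested fold changes under every alternative run (the untested step of miR-1248 between CP_0 and CC did not), but the size depended on scaling, pseudocount and test. With RPM alone miR-1246 had a log2 fold change of 6.70 in CP_7 against CP_0, 0.17 in CP_14 against CP_7, -8.16 in CC against CP_14 and -1.29 in CC against CP_0, and miR-1248 had -2.46 in CP_14 against CP_7. On unscaled reads miR-1246 had 4.69, 2.25 and -0.42 in CP_7 against CP_0, CP_14 against CP_7 and CC against CP_0, and miR-1248 -0.54 in CP_14 against CP_7. With a pseudocount of 5 miR-1246 had 5.08 in CP_7 against CP_0, -6.19 in CC against CP_14 and -0.45 in CC against CP_0, and miR-1248 2.38 and -0.84 in the first and second of these. A pseudocount of 0.5 gave -7.96 for miR-1246 in CC against CP_14. In that comparison edgeR gave -8.40 and DESeq2 -8.46 for miR-1246, and -3.07 and -3.16 for miR-1248, and in CC against CP_0 they gave -1.49 and -1.55 for miR-1246. The pseudocounts change the prior added to low counts, and the scalings change the total they are divided by. Unscaled reads change both, since the pseudocount is then 1 read. edgeR and DESeq2 also differ from limma in their model, and these parts were not tested apart.

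Leaving out each library gave 5.41 to 5.77, 0.95 to 1.32, -7.79 to -7.52 and -1.17 to -0.94 for miR-1246 in the 4 comparisons, and 3.32 to 4.21, -1.94 to -1.43 and -2.08 to -1.62 for miR-1248 in the first 3. The names called ran from 130 to 168, 89 to 137, 183 to 227 and 118 to 163. Of the 5 names most like miR-1246, 2 remained with RPM, with reads and with Spearman's correlation, and 5 without the third CP_0 library. Of those most like miR-1248, 2 remained with reads and with Spearman's correlation, 4 with RPM, and 2 without the third CP_0 library.

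Among the called non-canonical names, directions that reversed were those of miR-2904 (-0.42) and miR-320a (-0.38) on unscaled reads and miR-484 (0.45) on RPM in CP_7 against CP_0, miR-1839 on RPM (-0.13) and miR-2904 on unscaled reads (0.26) in CP_14 against CP_7, miR-320a on RPM (-0.35) and miR-451 on unscaled reads (0.034) in CC against CP_14, and miR-1839 in CC against CP_0 on unscaled reads (0.88) and with library size without miR-21-5p (0.070). The ratio of the group means of miR-1248 in CC against CP_0 was 1.56 in reads and below 1 on the other scales. These scalings move names together except at low counts, where the pseudocount weighs more. On unscaled reads it is 1 read in place of 1 RPM. Relative to the median of all names under the same scaling, each of the reversed fold changes of tested names kept its direction, for example 0.62 for miR-2904 and -0.67 for miR-484 in CP_7 against CP_0, against 0.65 and -0.66 with TMM.

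Libraries with the same replicate number did not deviate together (correlations from -0.29 to 0.13). With 3 libraries a group this cannot settle whether they shared a deer or culture. With the replicate block the folds of the members were the same (5.72 for miR-1246 in CP_7 against CP_0), and 151, 100, 189 and 118 names were called in place of 157, 130, 206 and 145. Of the non-canonical names, miR-484 in CP_7 against CP_0, miR-2904 in CP_14 against CP_7 and miR-1839 in CC against CP_0 were no longer called. The values of miR-1248 in CP_0 and CC rest on few reads, 9 and 14.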
